A study of Homo sapiens with 4 samples.

Results

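Long intergenic non-coding RNAs (lincRNAs) are spliced or unspliced transcripts that lie between protein-coding genes and hold no recognised reading frame. Some act as RNA, as NEAT1 does in building paraspeckles, some carry snoRNAs or microRNAs in their introns or exons, and for others the act of transcription bears on the gene beside them. In glioma, MALAT1, NEAT1, MEG3 and several snoRNA host genes are among the lincRNAs most often studied. The 206 genes described here are the well-measured members of this biotype in the U87MG glioblastoma line: rows labelled lincRNA on an autosome, listed in all 4 count tables, with at least 200 counts summed over the 4 libraries. They were taken from 3412 lincRNA rows among 29387 genes; AC006262.5 was left out. Of the 3334 autosomal lincRNA rows, 718 had no count in any library and 2409 had counts but fewer than 200. Because the level in these libraries chose the members, their level is a description and was not tested.

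The study compared U87MG populations that had entered organotypic brain slices during 1 week, in medium with FGF and EGF, with control populations taken from such cultures that had not. Each population was then grown on for 3 to 5 days before RNA was taken, and polyadenylated RNA was sequenced from stranded libraries. The groups were 2 invasive populations (invasive 1 and invasive 2, independently derived) and 2 poorly invasive controls (control 1 and control 2), 1 library each. All 4 populations share the parental line, its genotype, its growth in DMEM with 10% FBS and its slice exposure. The series text sets control 1 against invasive 1 and control 2 against invasive 2, so each pair was read by itself and the pair was a term of the fit. A p-value here measures the spread between these libraries and leaves 1 residual degree of freedom; whether other invasive populations of the line behave alike was not tested.

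Libraries held 13829871 to 17817756 counts, and the members took 0.390% and 0.417% of them in pair 1 and 0.432% and 0.443% in pair 2, the control given first here and wherever a pair is written out. Of the markers of the line, VIM, CD44, FN1, CAV1 and TNC were abundant. Markers of other brain cells, 3 for each type, had few counts. They summed to 3 to 6 counts a library for astrocytes (AQP4 at 0), 3 to 20 for oligodendrocytes (MOG at 0, MBP at 3 to 19), 0 to 3 for microglia (P2RY12 at 0) and 14 to 21 for endothelium (CLDN5 at 0, PECAM1 at 7 to 17). The 3 neuron markers summed to 135 and 76 counts in pair 1 and 81 and 76 in pair 2, nearly all SYT1. In bulk RNA, fewer cells with a transcript and less of it per cell cannot be told apart.

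Few members were abundant. Their median level was 7.51 CPM (counts scaled to the library's total, with TMM factors), against 41.2 CPM for the 10464 autosomal protein-coding genes with the same floor. Members under 10 CPM numbered 133, and 5 reached 100 CPM. The 8 most abundant held 51.6% of all member CPM. Per kilobase of exon the median was 2.45 CPM for the 180 members with a GENCODE v29 length and 7.64 CPM for the protein-coding genes. The exons of the latter were longer (median of 5382 bases against 3018) and more numerous (11 against 3.5). These lengths come from a later annotation than the counts and can exceed the interval in the files, as for RP11-553L6.5 (15214 bases against 1679). The values per kilobase are therefore rough and can be too low for such members. At the edge of the floor, AC096559.1 and 1 further row had a sum of 203 and LINC01094 of 204. Just outside it were LINC00669 with 198, AP000350.5 with 196 and a row with 194.

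Sequences of the members on which the results turn are shown first. MEG3, an imprinted RNA of chromosome 14 expressed from the maternal chromosome, had the largest fold change of the 206. Its RefSeq start window (250 bases before to 50 after a start site, GRCh38.p14, plus strand, chr14:100825858-100826157) is 1 of 3 windows listed for the gene, and capitals mark TGACGTCA, the palindromic cyclic AMP response element, and TATAAA.
MEG3: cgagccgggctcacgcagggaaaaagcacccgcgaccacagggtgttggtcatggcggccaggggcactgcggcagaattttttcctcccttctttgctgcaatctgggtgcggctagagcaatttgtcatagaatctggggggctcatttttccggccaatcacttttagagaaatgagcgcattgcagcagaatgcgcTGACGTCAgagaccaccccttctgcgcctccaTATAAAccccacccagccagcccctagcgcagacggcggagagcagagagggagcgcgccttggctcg
Searched on both strands, TGACGTCA was in 1.98% of 27305 RefSeq start windows and in 3 of the 110 members that could be matched to one (MEG3, LINC00265 and RP11-206L10.9). TATAAA was in 12.0% of all windows and in 14 of the 110. These matches describe letters in a window and no factor was measured there.

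SNHG18, a snoRNA host, starts 125 bases from SEMA5A on the opposite strand, so its start window (chr5:9545950-9546249, plus strand) also holds the start of SEMA5A. Capitals mark GGGCGG, the GC box, on either strand.
SNHG18: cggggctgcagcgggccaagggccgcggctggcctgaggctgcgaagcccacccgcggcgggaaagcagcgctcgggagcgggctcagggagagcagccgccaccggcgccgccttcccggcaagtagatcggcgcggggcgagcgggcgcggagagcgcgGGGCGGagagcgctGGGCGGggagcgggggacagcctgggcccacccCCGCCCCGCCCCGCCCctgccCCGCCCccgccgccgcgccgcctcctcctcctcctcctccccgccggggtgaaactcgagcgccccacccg
The window held this motif 6 times. GGGCGG was in 44.6% of all windows and in 59 of the 110 member windows.

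By position, 25 microRNA genes of GENCODE v29 lay on the strand of their host inside 16 members. The 4 let-7 forms among them share 1 seed (bases 2 to 8, in capitals) and come from 3 host genes, shown here because the hosts can then be compared for 1 seed. MIRLET7BHG holds let-7a-3 and let-7b, MIR99AHG holds let-7c, and RP11-631N16.2 holds let-7i.
hsa-let-7a-5p: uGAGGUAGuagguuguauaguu
hsa-let-7b-5p: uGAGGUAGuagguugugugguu
hsa-let-7c-5p: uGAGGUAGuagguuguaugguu
hsa-let-7i-5p: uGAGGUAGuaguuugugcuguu
Other hosts carry microRNAs with seeds of their own, among them miR-210 in MIR210HG, miR-9 in LINC00461 and miR-29b in the row named MIR29B1.
hsa-miR-210-3p: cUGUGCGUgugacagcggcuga
hsa-miR-9-5p: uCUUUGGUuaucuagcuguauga
hsa-miR-29b-3p: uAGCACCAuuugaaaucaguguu
Mature sequences are those of RefSeq. Poly(A) libraries read the host transcript, and mature microRNAs were not measured.

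No lincRNA passed the adjusted threshold between invasive and control populations, while several differed by more than 2-fold in both pairs. With edgeR's quasi-likelihood test, blocked by pair and adjusted over 14231 genes by Benjamini-Hochberg, 0 of 206 members were called higher and 0 lower, beside background shares of 0.239% and 0.0351% of all genes. At an unadjusted p under 0.05 there were 24 higher and 22 lower, beside 9.82% and 8.41% of all genes; together these were 22.3% of the members and 18.2% of all genes. The lowest adjusted p was 0.0802, for LINC00668, and 5 members were under 0.1 (LINC00668, RP11-575F12.3, LINC01279, RP11-54O7.3 and C14orf132). DESeq2 with the same block called 3 higher (MEG3, C14orf132 and RP11-54O7.3) and 2 lower (AC003092.1 and RP11-575F12.3), with background shares of 0.998% and 0.204%. Without the filter on low counts, edgeR called 11 higher and 14 lower, beside 2.97% and 2.71%.

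The members had no common direction. Their median log2 fold change was -0.0059, with quartiles of -0.23 and 0.29, beside medians of 0.0054 over all genes tested and -0.015 over the protein-coding genes. The median absolute log2 fold change was 0.25 for the members, 0.19 for all genes and 0.16 for protein-coding genes. Among the 35 members with 1000 or more counts, 40.0% had an unadjusted p under 0.05 in edgeR's test, beside 21.6% of 8064 protein-coding genes of that depth, and their medians of the absolute log2 fold change were 0.23 and 0.15. Among the 85 members with under 400 counts the share was 14.1%, beside 16.3% of 791 protein-coding genes. None of these differences between sets was tested.

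Within pairs, 77 members were higher in both invasive libraries and 63 lower in both, beside background shares of 33.4% and 31.9%. At least 2-fold differences were fewer in pair 1, with 5 members higher and 3 lower (background 3.02% and 0.97%), than in pair 2, with 8 higher and 10 lower (background 4.31% and 2.07%). MEG3, LINC00668 and RP11-54O7.3 were at least 2-fold higher in both pairs, a count of 3 beside 1.15% of all genes, and no member was 2-fold lower in both, beside 0.183%. The 2 invasive libraries lay above both controls for 46 members and below both for 45, beside 21.8% and 21.6% of all genes, so these counts are near the background. Across the 206 members the differences of the 2 pairs had a Pearson r of 0.44 and a Spearman rho of 0.49, beside 0.39 and 0.40 over all genes; the pairs share no library.

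**Figure D1:**
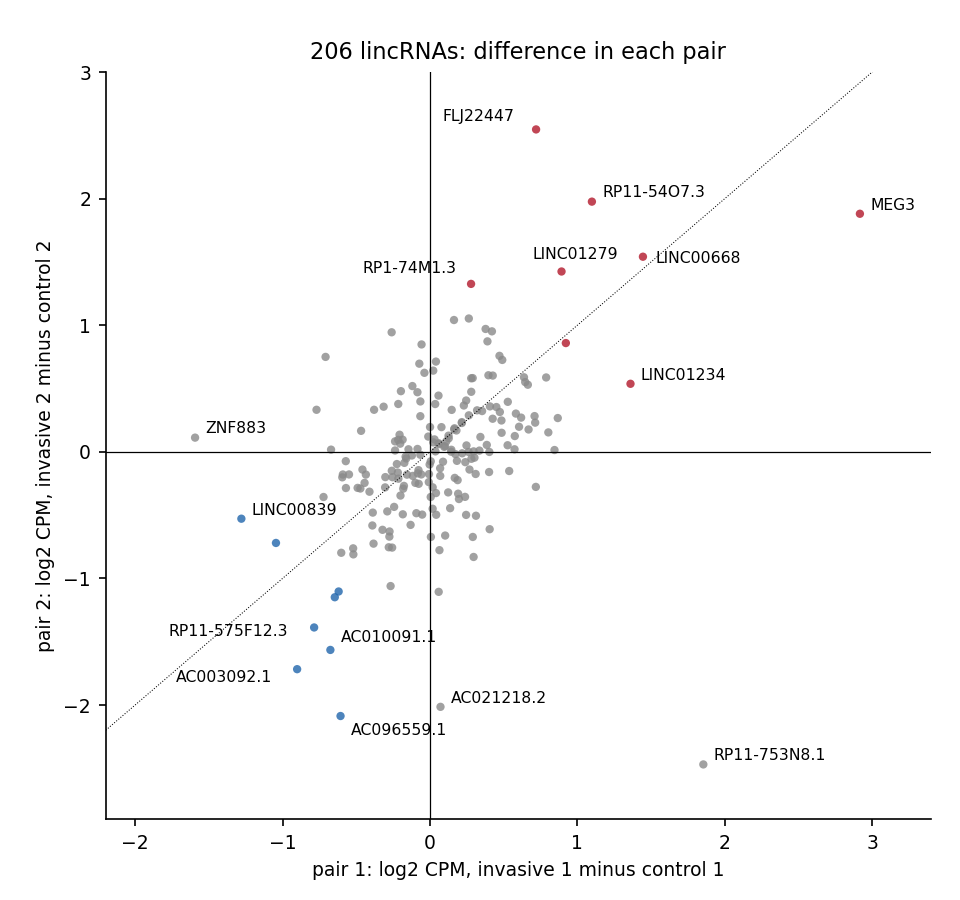
Each point is 1 of the 206 lincRNAs, with the log2 CPM difference of invasive and control in pair 1 across and in pair 2 up; red and blue mark the 8 largest positive and negative fold changes of the same sign in both pairs, and the dotted line marks equal differences. MEG3 lies far to the upper right, and RP11-753N8.1 lies at 1.85 in pair 1 and -2.47 in pair 2.

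MEG3 stood highest among the positive differences. This RNA (chromosome 14, 100779410 to 100861031, plus strand) is the maternally expressed member of the DLK1-DIO3 imprinted domain and is silenced in many tumours. It had 17.5 CPM in control 1 and 133 in invasive 1, then 20.7 CPM in control 2 and 76.5 in invasive 2. Both invasive libraries were thus well above both controls, and the controls were close to each other. The log2 fold change was 2.41 ± 0.31 (fitted SE), 5.32-fold, with an adjusted p of 0.12 in edgeR's test. In unblocked fits with 1 library left out, the fold change was called without invasive 1 (2.00, adjusted p 0.0192) and without invasive 2 (2.80, 0.00231). It was not called without control 1 (2.34, 0.0704) or control 2 (2.58, 0.234).

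Other lincRNA rows of this domain were too sparse to be members but can be set beside MEG3. MEG8 had 1 count in control 1 and 12 in invasive 1, then 0 in control 2 and 8 in invasive 2. MEG9 had 5 counts in control 1 and 30 in invasive 1, then 6 in control 2 and 22 in invasive 2, a log2 fold change of 2.37 ± 0.46 with an adjusted p of 0.0993. SNHG23 and SNHG24, whose rows lie between MEG8 and MEG9, had 4 and 15 counts and 2 and 10 counts in pair 1, and 6 and 9 counts and 5 and 6 counts in pair 2. In each pair all 4 of these maternally expressed rows had more counts in the invasive library. RTL1, a protein-coding gene expressed from the paternal chromosome in this domain, had no count in any library. Values of DLK1 and DIO3 are not given here. BEGAIN, a protein-coding gene of the synapse-associated BEGAIN protein and the nearest tested coding gene to MEG3 at 192 kb, passed the threshold: it rose from 348 counts in control 1 to 1332 in invasive 1 and from 319 in control 2 to 935 in invasive 2. Its log2 fold change was 1.91 ± 0.14 with an adjusted p of 0.0205, and 0.0652 with control 2 left out.

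LINC00668 and RP11-54O7.3 were the other members 2-fold higher in both pairs. LINC00668 (chromosome 18, 6919496 to 6929966, minus strand) had 1.71 and 4.87 CPM in pair 1 and 3.24 and 9.68 CPM in pair 2, a log2 fold change of 1.54 ± 0.24. The highest control stood below the lowest invasive library. RP11-54O7.3 (LINC02593, chromosome 1, 916865 to 921016, minus strand) had 4.84 and 10.5 CPM in pair 1 and 2.66 and 10.8 CPM in pair 2. Its log2 fold change was 1.54 ± 0.28 with an adjusted p of 0.0937. Of the 4 fits with 1 library left out, the one without control 1 called it (adjusted p 0.0422), and the others gave 0.25 to 0.508. It lies 3864 bases from SAMD11, which encodes a SAM-domain nuclear protein and which it faces head to head. SAMD11 had 379 and 637 counts in pair 1 and 202 and 604 in pair 2, a log2 fold change of 1.31 ± 0.21 with an adjusted p of 0.096.

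The 5 further positive members completed the 8 with the largest fold change of the same sign in both pairs. FLJ22447 (LINC03033), beside HIF1A on chromosome 14, had 49 and 73 counts in pair 1 and 14 and 82 in pair 2. Its log2 fold change of 1.57 ± 0.49 rested mainly on pair 2, where the difference was 2.55 against 0.72 in pair 1. LINC01234 was stronger in pair 1, at 1.36 against 0.54, and had a log2 fold change of 0.98 ± 0.28. RP11-905K4.1 differed by 0.92 and 0.86 in the 2 pairs, LINC01279 by 0.89 and 1.42, and RP1-74M1.3 by 0.28 and 1.33. In all 5 the invasive libraries lay above both controls, beside 21.8% of all genes. These 5 were picked for large positive fold changes on the same contrast, which favours this order.

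Of the members with the most negative fold changes, AC003092.1 was the most abundant. This lincRNA (chromosome 7, 94022833 to 94066661, plus strand) had 41.4 and 22.1 CPM in pair 1 and 86.3 and 26.2 CPM in pair 2. The controls differed from each other by more than the invasive libraries did, and both stood above them. Its log2 fold change was -1.32 ± 0.22 with an adjusted p of 0.10. With control 1 left out it was -1.84 with an adjusted p of 0.00631, and with any other library left out it was not called, at adjusted p from 0.476 to 0.769. Its nearest coding gene, BET1, a SNARE protein of vesicle transport, had a log2 fold change of 0.11 ± 0.12. On the other side, at 328 kb, COL1A2, a chain of type I collagen, went from 15585 to 29808 counts in pair 1 and from 8496 to 26250 in pair 2 (1.44 ± 0.18, adjusted p 0.0708). Beyond BET1, TFPI2, an inhibitor of serine proteases in the extracellular matrix at 132 kb, had 14725 and 4858 counts in pair 1 and 41451 and 6348 in pair 2. GNG11, a G protein subunit at 94.2 kb, had a log2 fold change of -0.60 ± 0.19. TFPI2 and GNG11 were picked after their values were seen. The lincRNA and TFPI2 shared the pattern of a high control 2.

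RP11-575F12.3 (chromosome 12, 127147149 to 127150081) lies over 1 Mb from any tested coding gene. It had 17.9 and 10.3 CPM in pair 1 and 24.8 and 9.40 CPM in pair 2. Its log2 fold change was -1.09 ± 0.19 with an adjusted p of 0.0934. The remaining 6 ranged from -1.21 to -0.88: AC096559.1, AC010091.1, LINC00839, RP11-30P6.6, WI2-87327B8.2 and RP11-462L8.1. Of these, AC096559.1 and AC010091.1 had control 2 below invasive 1, so their groups overlapped. Invasive 2 held only 9 counts of AC096559.1 and 14 of AC010091.1.

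**Figure D2:**
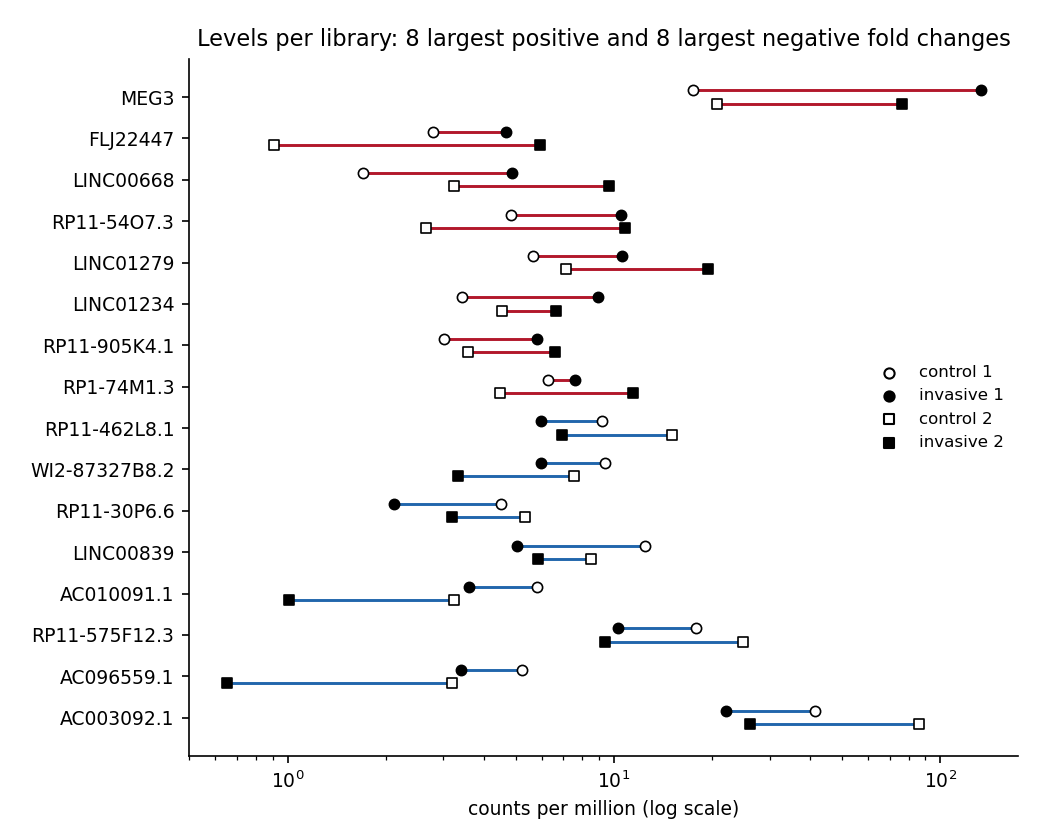
CPM on a log axis for the 16 members with the largest fold change of the same sign in both pairs, with circles for pair 1, squares for pair 2, open symbols for controls and filled symbols for invasive populations; lines join the libraries of a pair. MEG3 is the highest of the red group at 133 CPM in invasive 1, and AC003092.1 of the blue group at 86.3 CPM in control 2.

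Among the 8 most abundant members, NEAT1, MALAT1 and LINC00657 differed little between groups. NEAT1, the scaffold of paraspeckles, had 627 and 622 CPM in the 2 controls and 685 and 679 CPM in invasive 1 and 2, a log2 fold change of 0.13 ± 0.10. MALAT1, an RNA of nuclear speckles, was lower in the invasive library of each pair, at 323 against 271 CPM and 426 against 371 CPM, and its log2 fold change was -0.23 ± 0.10 with an adjusted p of 0.289. The MALAT1 groups overlapped, since control 1 lay below invasive 2. LINC00657 (NORAD), which binds Pumilio proteins, had 447 and 466 CPM in pair 1 and 687 and 720 in pair 2. It was closer within a pair than between pairs, with a log2 fold change of 0.06 ± 0.10.

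RP4-555D20.2 went opposite ways, at 235 against 229 CPM in pair 1 and 109 against 168 CPM in pair 2. LINC01444 had a log2 fold change of 0.08 ± 0.10. C14orf132, the fourth most abundant member, had 179 and 147 CPM in controls 1 and 2 and 248 CPM in each invasive library. Its log2 fold change was 0.61 ± 0.11 with an adjusted p of 0.0937. LINC00998, now SMIM30, had a log2 fold change of -0.27 ± 0.10.

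Proteins that paraspeckles are built with were set beside NEAT1. Of 17 genes, among them NONO and SFPQ, 0 were called, 4 were lower and 0 higher at an unadjusted p under 0.05 in edgeR's test, beside 8.41% and 9.82% of all genes. In both pairs 12 were lower, beside 31.9% of all genes. Their median log2 fold change was -0.15, beside 0.0054 over all genes. The 10 genes of polycomb repressive complex 2, which several lincRNAs have been reported to bind, had a median of -0.10 with 0 called and 1 at an unadjusted p under 0.05, on the higher side. For the 14 nonsense-mediated decay factors, which act on spliced non-coding transcripts such as snoRNA hosts, it was -0.05 with 0 called and 2 at that p, both lower.

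The 5 members classed here as snoRNA hosts split by direction, each of them alike in both pairs. The class was a list matched to the symbols in the files. EPB41L4A-AS1 was on it although its symbol does not name it as a host. SNHG8 had 65.6 and 47.3 CPM in pair 1 and 66.8 and 54.6 CPM in pair 2, a log2 fold change of -0.38 ± 0.11. EPB41L4A-AS1 and SNHG15 had log2 fold changes of -0.38 ± 0.14 and -0.46 ± 0.16. SNHG18 had 10.1 and 9.08 CPM in controls 1 and 2 against 14.3 and 15.1 CPM in invasive 1 and 2, a log2 fold change of 0.61 ± 0.17, and SNHG19 had 0.51 ± 0.21. None passed the adjusted threshold, with adjusted p from 0.159 to 0.279. In edgeR's test 4 of the 5 had an unadjusted p under 0.05, beside 18.2% of all genes. The list was written with earlier results of these data known, so this count is a description. The median of the class was -0.38, and -0.10 with control 2 left out. A further row, RP11-1094M14.11, carries the later symbol SNHG30 and was not in the class, since the files give its older symbol. It had -0.34 ± 0.22 and was lower in both pairs.

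Genes of the snoRNP core and its assembly, which package the snoRNAs that these hosts carry, leaned to the negative side. Of 14 (FBL, NOP56, NOP58, DKC1 and others), 0 were called, 6 were lower at an unadjusted p under 0.05 in edgeR's test and 0 higher, beside the same 8.41% and 9.82%. In both pairs 13 of the 14 were lower, beside 31.9% of all genes, and their median log2 fold change was -0.27. SNHG8, EPB41L4A-AS1 and SNHG15 had the same sign as this list, and SNHG18 and SNHG19 the opposite.

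**Figure D3:**
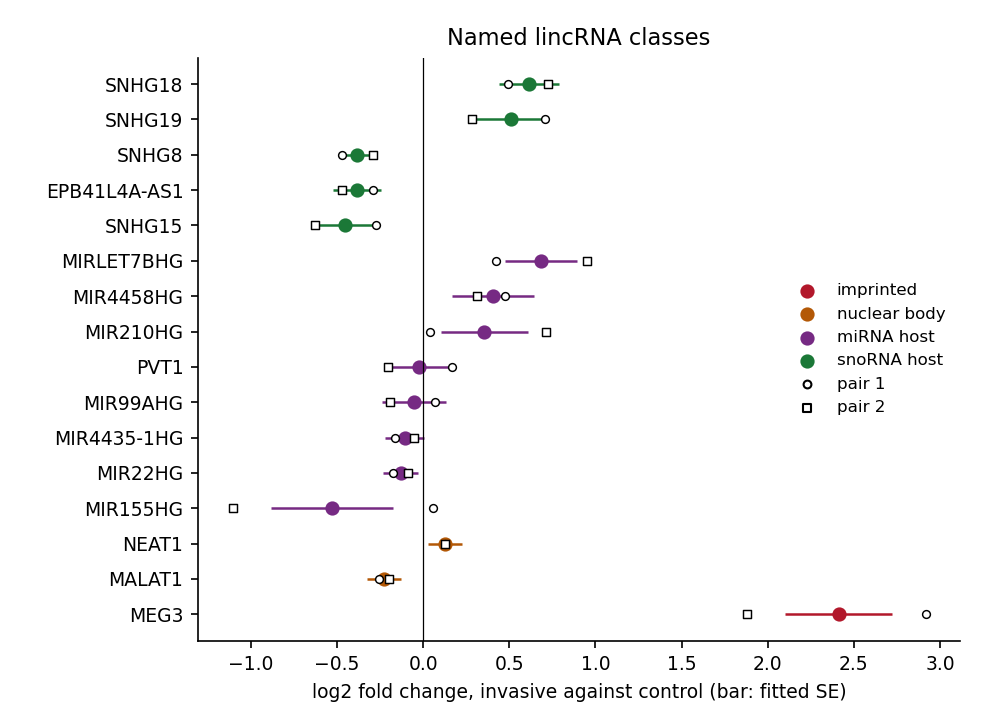
Log2 fold change of the 16 members in the 4 named classes, with bars for the fitted SE and open symbols for the log2 CPM difference of each pair. SNHG18 and SNHG19 lie on the positive side and the other 3 snoRNA hosts on the negative side in both pairs, and MEG3 lies at 2.41.

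The 8 members classed as microRNA hosts by a list of symbols, PVT1 among them, had no common direction. Their median log2 fold change was -0.04, with 0 called. Only MIRLET7BHG had an unadjusted p under 0.05 in edgeR's test, beside 18.2% of all genes. MIR22HG had a log2 fold change of -0.13 ± 0.10, MIR4435-1HG of -0.11 ± 0.11 and PVT1 of -0.02 ± 0.19. MIRLET7BHG had 9.73 and 6.55 CPM in controls 1 and 2 against 13.1 and 12.8 CPM in invasive 1 and 2, a log2 fold change of 0.68 ± 0.21 with an adjusted p of 0.183. Of the other let-7 hosts with the seed shown above, RP11-631N16.2 had 70 and 110 counts in pair 1 and 126 and 126 in pair 2, a log2 fold change of 0.47 ± 0.24, and MIR99AHG had -0.05 ± 0.19.

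Grouping by position in place of name gave 17 members that hold a microRNA gene of GENCODE v29, 16 of them on its strand. Of these 17, 10 were higher in both pairs and 4 lower in both, beside 33.4% and 31.9% of all genes, with a median log2 fold change of 0.13. MIR155HG, host of miR-155, went opposite ways, at 0.06 in pair 1 and -1.11 in pair 2. LINC00461, a host of miR-9, had 300 and 365 counts in pair 1 and 255 and 293 in pair 2 (0.41 ± 0.13). MIR210HG, whose microRNA is known for its response to low oxygen, had 140 and 128 counts in pair 1 and 57 and 85 in pair 2 (0.35 ± 0.25). The row named MIR29B1 had 0.22 ± 0.13. Genes of microRNA processing (12, with DROSHA, DGCR8 and DICER1) had a median of -0.04, with 0 called. In edgeR's test 2 had an unadjusted p under 0.05, both lower, beside 8.41% of all genes lower and 18.2% in either direction.

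Protein-coding neighbours gave 3 genes that passed the threshold, each with the sign of its lincRNA. The 16 members with the largest fold changes have 32 flanking tested coding genes, of which BEGAIN, HGF and SLCO4A1 were called, beside 0.274% of all genes. The members were picked on the same contrast and share its libraries, so no test was made. HGF, the ligand of the MET receptor, lies 72.8 kb from AC010091.1 on chromosome 7. It fell from 857 to 249 counts in pair 1 and from 449 to 144 in pair 2 (log2 fold change -1.55 ± 0.13, adjusted p 0.0205). AC010091.1 itself had 102 and 56 counts in pair 1 and 50 and 14 in pair 2 (-1.07 ± 0.33). The HGF call was lost with any 1 library left out, at adjusted p from 0.115 to 0.638, and without the pair block, at 0.238.

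SLCO4A1, an organic anion transporter, lies 39.3 kb from WI2-87327B8.2 (LINC02970) on chromosome 20 and faces it head to head. It fell from 441 to 127 counts in pair 1 and from 344 to 120 in pair 2 (-1.50 ± 0.16, adjusted p 0.0337). WI2-87327B8.2 had 9.39 and 7.53 CPM in controls 1 and 2 and 5.96 and 3.32 CPM in invasive 1 and 2 (-0.89 ± 0.24). The SLCO4A1 call was lost without invasive 1, control 2 or invasive 2, at adjusted p of 0.093, 0.131 and 0.159, and without the pair block, at 0.10. NT5E, the CD73 ectonucleotidase, lies 59.4 kb from RP11-30P6.6 on chromosome 6. It had 12283 and 6480 counts in pair 1 and 15962 and 5760 in pair 2, and a log2 fold change of -1.03 ± 0.15 beside -0.91 ± 0.27 for the lincRNA; its adjusted p was 0.0758.

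Other neighbours differed from their lincRNA. Beside LINC00668, ARHGAP28 had 0.02 ± 0.21 and LAMA1, a laminin chain, -0.22 ± 0.13. Beside FLJ22447, PRKCH had -0.19 ± 0.27 and HIF1A, the oxygen-regulated transcription factor, 0.08 ± 0.12. RBM19 beside LINC01234 had -0.27 ± 0.10 and C18orf21 beside RP11-905K4.1 had -0.45 ± 0.19, both opposite to the member. TMEM132B, beyond 1 Mb from RP11-575F12.3, had 5 and 41 counts in pair 1 and 14 and 27 in pair 2 and also went the other way. RP11-462L8.1 overlaps ITGB1, an integrin chain, in the files' intervals, so ITGB1 was not taken as a neighbour and its change is not given here. The flanking genes of RP11-462L8.1, CCDC7 and NRP1, had 0.09 ± 0.49 and 0.0052 ± 0.12. The flanking genes PPP2R5C, FO538757.2, SLC35A5, SDSL, GALNT1, KDM1A, LPIN1, TRIB2, SLC15A4, SEMA3C, ZNF37A, ZNF33B, TBX18 and CABLES2 were not called. In all, 19 of the 32 had the sign of their member. These 19 include CCDC80 beside LINC01279 and EPHB2 beside RP1-74M1.3. In GENCODE v29 both rows lie inside exons of those same genes, as described further on, so these 2 are not separate neighbours.

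Over the whole set, a lincRNA and its nearest coding gene went together little more often than not. The share with the same sign was 51.9% of 206 members, beside 53.5% of the 10464 protein-coding genes and their own nearest neighbours. Within 5 kb it was 59.2% of 76 members, beside 54.7% of 3718 protein-coding genes. These 76 include 21 rows that lie at least 50% inside exons of a coding gene in GENCODE v29, described further on. Of those 21, 16 had the sign of the nearest gene, and of the other 55 the share was 52.7%. Without all 24 such rows the share over the whole set was 49.5% of 182. Across the 206 members, which share their 4 libraries, the fold changes of member and neighbour had a Pearson r of 0.26, and 0.18 without MEG3 and FLJ22447. Within 5 kb r was 0.45, and 0.37 without LINC00668 and RP11-54O7.3. For the 55 outside coding exons it was 0.35, and 0.17 without the same 2, so it rested on them. Of the 58 members that face their neighbour head to head, r was 0.60 and fell to 0.32 without MEG3 and RP11-54O7.3. For protein-coding genes r was 0.09 over the whole set and 0.12 within 5 kb. Coding genes that overlap a member were left out as neighbours in these counts, and 33 members overlap one. With overlapping genes kept, the share with the same sign was 52.4% of 206 members and r was 0.27.

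**Figure D4:**
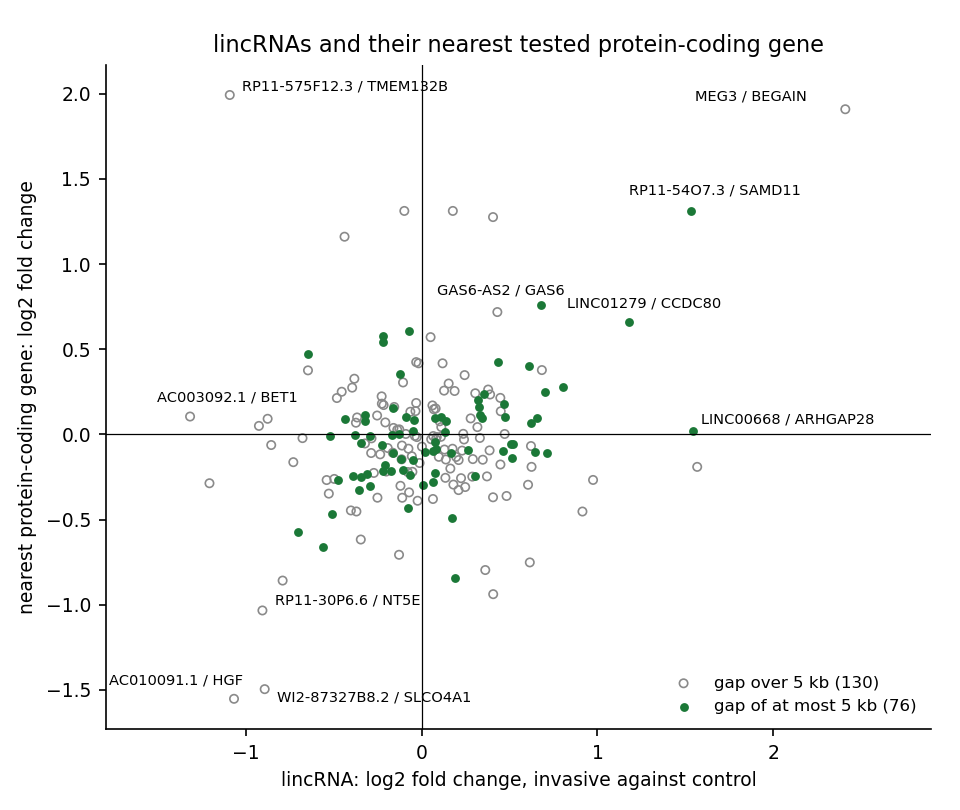
Log2 fold change of each lincRNA across and of its nearest tested protein-coding gene up, genes that overlap it left out. Points are filled for the 76 with a gap of at most 5 kb and open for the other 130. MEG3 with BEGAIN and RP11-54O7.3 with SAMD11 lie at the upper right, and AC010091.1 with HGF and WI2-87327B8.2 with SLCO4A1 at the lower left.

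Divergent pairs, whose starts on opposite strands lie within 1000 bases, numbered 39 for 37 members. Both genes were tested in 37 pairs. Of these 37, 20 had the same sign, beside 54.7% of protein-coding genes and their nearest gene within 5 kb, in any orientation. Among the 5 closest that do not overlap, NCBP2-AS2 and NCBP2 had -0.31 and -0.23, SCAMP1-AS1 and SCAMP1 had 0.11 and 0.10, and RP11-448A19.1 and NRF1 had -0.21 and -0.18. RP11-37B2.1 and RIPK2 went opposite ways, at 0.17 and -0.49, as did NUP50-AS1 and NUP50, at 0.30 and -0.24. A further 2 pairs were picked after their values were seen. GAS6-AS2, 101 bases from GAS6, the ligand of the AXL receptor kinase, had a log2 fold change of 0.68 ± 0.30 beside 0.76 ± 0.15 for GAS6. SNHG18, 125 bases from SEMA5A, a transmembrane semaphorin, had 0.61 ± 0.17 beside 0.40 ± 0.11.

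Some rows listed as lincRNA belong elsewhere in a later annotation, which bears on what their counts measure. In GENCODE v29, on the same build, 180 of the 206 identifiers were found, 154 of them still as lincRNA and 6 as protein-coding genes. Those 6 are C14orf132, LINC00998 (SMIM30), RP11-785H5.1 (SMIM10L1), NCBP2-AS2, AC093323.3 and RP11-309L24.4 (ATP6V1FNB). Of the other 26 identifiers, 23 lie at least 50% inside exons of a protein-coding gene in that release, and so does 1 of those found. For 21 of the 24 the whole interval is annotated as UTR.

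Rows of this kind went with the coding gene in whose exons they lie. Across the 24, 20 had the same sign as that gene, with a Pearson r of 0.75 and a Spearman rho of 0.81, and 0.75 and 0.79 without the 2 rows farthest from the median. The row and the gene were counted in the same 4 libraries, so the correlation is a description. Their median absolute difference in log2 fold change was 0.12. LINC01279 had 99 and 165 counts in pair 1 and 110 and 268 in pair 2 and lies in the UTR of CCDC80, a secreted matrix protein with 2366 and 2858 counts in pair 1 and 1865 and 3076 in pair 2. Their log2 fold changes were 1.18 ± 0.21 and 0.66 ± 0.13. The next 3 rows were picked after their values were seen and are among the closest matches. CTD-2044J15.2 had 0.43 ± 0.16 beside 0.42 ± 0.12 for SRD5A1, a steroid reductase. CASC7 had -0.36 ± 0.15 beside -0.33 ± 0.12 for AGO2, an Argonaute protein. RP11-1002K11.1 had -0.30 ± 0.17 beside -0.30 ± 0.10 for NRG1, a ligand of ERBB receptors. RP1-74M1.3 had 0.81 ± 0.30 beside 0.28 ± 0.21 for EPHB2, an ephrin receptor. Without the 24 rows, 0 of 182 members were called in either direction, and the median log2 fold change was 0.0025.

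**Figure D5:**
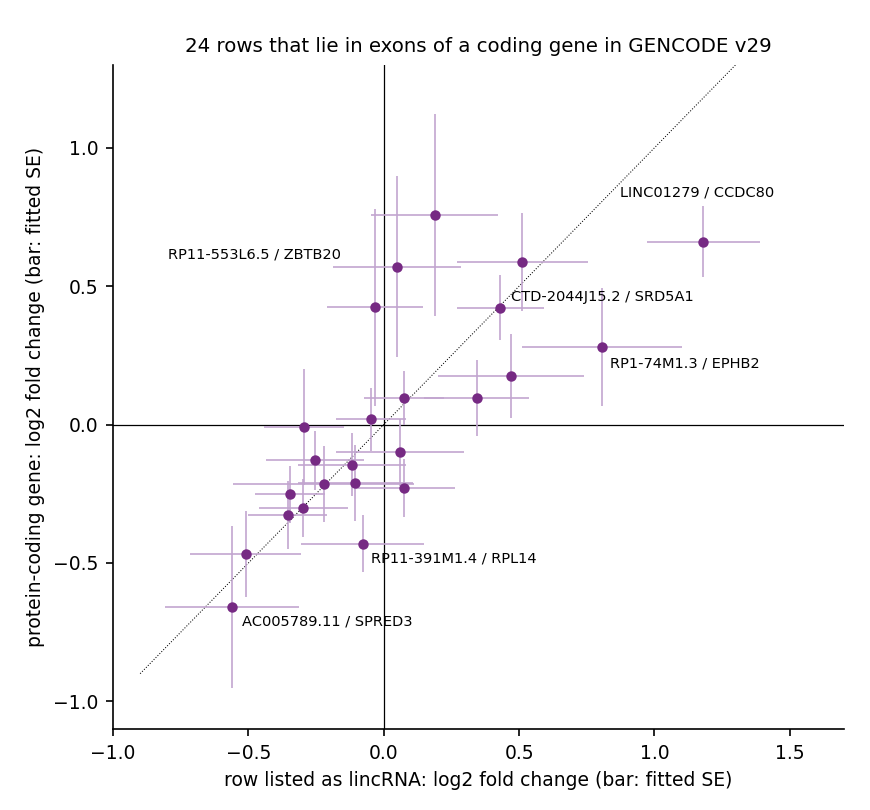
Log2 fold change of the 24 rows across and of the protein-coding gene in whose GENCODE v29 exons they lie up, with bars for fitted SEs and a dotted line of equality. Points scatter about the line, with 20 of 24 of the same sign. The row minus its gene reached -0.57 for CTC-273B12.8 and 0.52 for RP1-74M1.3. CYTH2, the gene of CTC-273B12.8, had only 88 counts summed over the 4 libraries, below the 200 asked of members. ADPRHL1, ZBTB20 and SPRED3 were also below it, at 88, 160 and 180, so these fold changes are less certain. LINC01279 lies farthest right at 1.18, beside 0.66 for CCDC80.

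Counts of some members may be shared with other loci or strands. In the files' intervals 33 members overlap a protein-coding gene, and whether counting used the strand is not stated in the sources. LINC00969, BCYRN1, MIR4435-1HG, LINC01001, LINC01002 and RP11-206L10.9 have near-identical copies elsewhere in the genome, so their values are uncertain. Copies were not searched for, so this list is not complete. In GENCODE v29, 8 members are typed as transcribed unprocessed pseudogenes, CROCCP2 and CECR7 among them. MALAT1 overlaps a protein-coding row of the same symbol that held few counts.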

How the data were processed

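Polyadenylated RNA of 2 invasive and 2 control U87MG populations, 1 library each, was sequenced on stranded libraries. The submitters' processing notes name bcl2fastq 1.8.4, TopHat2 2.0.12, HTSeq, DESeq2 and build GRCh38, in no stated order; no source says if reads were counted by strand. Per the file headers, the authors deposited raw counts per gene (13829871 to 17817756 per library), which gave every result in the report. The authors also deposited normalized counts, whole numbers treated here as a score, since the sources used do not give their scaling. Those tables hold all 206 members in pair 1 and 114 in pair 2.

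Members and lists were chosen with earlier results of these data known. Some genes of the marker and pathway lists are not reported here by name. edgeR 4.0.16 (R 4.3.3, TMM factors, filterByExpr with a minimum count of 10, robust quasi-likelihood F test) was fitted to all 14231 genes that passed the filter, all 206 members among them, blocked by pair, with a Benjamini-Hochberg threshold of 0.05. SE is the absolute log2 fold change divided by the root of F. Within-pair differences used log2 CPM with a prior count of 2. On data simulated for this comparison from the 14231 genes, the fit called 42 of 50 genes changed by 1 on the log2 scale and 50 of 50 changed by 2. It called 33 of 50 changed by -1, 45 of 50 changed by -2, and 5 of 14031 unchanged genes. The changed genes were drawn at all levels (median of 25.2 CPM over all genes, 7.51 for the members). Their spread followed the trend with level and had no part of its own for single genes. The simulated shares therefore do not give the power for the members. The pairing comes from the series text; deviations of same-numbered libraries from the group means had r = 0.28. The 2 libraries of each group differed by more than counting noise (chi-square per degree of freedom of 34.7 and 21.7) and were counted as separate samples.

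Named members were every member past the threshold, the 8 with the largest fold change in each direction of the same sign in both pairs, the 8 most abundant, the 4 most abundant of each class, the 5 whose pairs differed most, and the 3 on either side of the count floor. Named neighbours were the nearest tested coding gene on each side of the first 16, genes that overlap the member left out, and the 5 closest divergent pairs. Strand, gene type, exon length and microRNA positions came from GENCODE release 29, sequences from RefSeq tables. Alternatives were median-ratio factors, no filter, DESeq2 1.42.0, no block, each library left out (without the block), a prior count of 0.5, higher count floors, the deposited normalized values and, added after seeing the data, the members outside coding exons.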

Additional observations from a re-analysis of the deposited data

Results flagged for a closer look

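RP11-753N8.1 (LINC02392, chromosome 12) was at least 2-fold different in both pairs but in opposite directions, the only such member beside 27 of all 14231 genes. It had 13 counts in control 1 and 47 in invasive 1, then 268 in control 2 and 42 in invasive 2. The log2 CPM difference was 1.85 in pair 1 and -2.47 in pair 2. This difference between the pairs was not tested. Control 2 stood apart from the other 3 libraries for this gene, and without control 1 its log2 fold change was -2.52 with an adjusted p of 0.00788. Large gaps between the pairs without a second 2-fold difference were also seen for AC021218.2, at 0.07 and -2.01, and for ZNF883, at -1.59 and 0.11.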

How the results depend on the processing

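Each pair is 1 library against 1, so the adjusted calls lean on the spread shared across genes, and low-count members could pass only with large differences. Counts of calls depended on the processing. Members called higher went from 0 to 11 without a filter and 3 with DESeq2, and members called lower from 0 to 14 and 2; leaving out 1 library gave 0 to 1 higher and 0 to 2 lower, and no other alternative called a member. Genes called higher went from 34 to 80 with median-ratio factors, 760 without a filter, 142 with DESeq2, 2 without the replicate block and 3 to 55 with 1 library left out. Genes called lower went from 5 to 9, 693, 29, 0 and 0 to 61 under the same alternatives.

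The median of the members moved from -0.0059 to 0.050 with 50 or more counts in each library and to between -0.036 and 0.076 with 1 library left out. For the snoRNA hosts the median moved from -0.38 to -0.40 without a filter and to between -0.49 and -0.10 with 1 library left out. For NEAT1 and MALAT1 it moved from -0.050 to -0.073 without a filter and to between -0.17 and 0.050 with 1 library left out. With the deposited normalized values, the within-pair median of the members moved from 0.050 to -0.062 in pair 1 and from 3.9e-05 to -0.054 in pair 2. Those values cover only 114 of the 206 members in pair 2, so the 2 medians there are over different sets of members. With a sum of at least 400 the pair 2 median moved to -0.038. The causes were not tested.

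The fits that left out a library had no block and assume that the lone library varies like the other group. Under them the sign turned for some named genes whose fold change was not called with all 4 libraries, within these ranges of the log2 fold change: LINC00657 from -0.28 to 0.40, RP4-555D20.2 from -0.25 to 0.86, LINC01444 from -0.11 to 0.26, MIR22HG from -0.28 to 0.010, MIR4435-1HG from -0.27 to 0.042 and PVT1 from -0.38 to 0.36. LINC01094 ranged from -0.76 to 0.52, and RP11-753N8.1 from -2.52 without control 1 (called) to 2.01 without control 2. Among neighbours, PRKCH ranged from -0.48 to 0.10, HIF1A from -0.071 to 0.22, ARHGAP28 from -0.15 to 0.18, SLC35A5 from -0.065 to 0.094, GALNT1 from -0.021 to 0.38, BET1 from -0.093 to 0.29 and TRIB2 from -0.52 to 0.20. SLC15A4 ranged from -0.058 to 0.15, ZNF37A from -0.25 to 0.16, TBX18 from -0.41 to 0.23, CABLES2 from -0.40 to 0.15, CCDC7 from -0.39 to 0.51 and NRP1 from -0.17 to 0.18. Without a filter the sign turned for ARHGAP28 (-0.0049), SLC35A5 (-0.0074) and NRP1 (-0.018). No other named gene turned under any alternative, in 523 of 616 comparisons with the same side of the threshold as well.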
